A study of Mus musculus with 15 samples.

Results

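The cathepsins are the main proteases of the lysosome. Of the 54532 genes of the deposited FPKM table, 9 cathepsin genes are described here: Ctss, Ctsk, Ctsc, Ctsz, Ctsb, Ctsd, Ctsl, Ctsh and Ctsa. They were chosen by name, by matching the table's Ensembl identifiers to gene symbols of the mm10 mouse annotation. The first 4 are called macrophage-linked here, because they are best known from phagocytes or their relatives, and the other 5, found in the lysosomes of most cells, are called ubiquitous. Both names are working labels, not measurements.

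The values come from mRNA sequencing of whole kidneys of male C57BL/6 mice that were 8 weeks old at the start, with 5 mice in each of 3 groups. C mice ate normal chow throughout and served as controls. M mice, the chronic kidney disease (CKD) model, ate chow with 0.25% adenine for 4 weeks and standard chow until week 8. AA mice had the same adenine course and were also gavaged with asiatic acid, a plant triterpenoid, at 30 mg/kg each day for all 8 weeks, while C and M mice received the vehicle. M and AA thus shared the adenine course, and all groups ended on standard chow. A single strain, sex and dose limits each group as a model. The measurement was made on bulk tissue, in which more cells of a type and more RNA per cell cannot be told apart.

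Most cathepsins are made as inactive precursors, carried to the lysosome by mannose 6-phosphate receptors, and activated there by acid and by other proteases. Cystatins and stefins hold the cysteine cathepsins in check outside and inside the cell. In the kidney, proximal tubule cells use them to degrade filtered protein, and phagocytes use them to digest engulfed material and to prepare antigens. Adenine in the diet forms crystals in the tubules that injure the epithelium and draw in inflammatory cells.

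In M kidneys 1 of the 4 macrophage-linked cathepsins was called higher against C, beside 0.269% of all genes tested. This was Ctss, higher by 3.30 ± 0.58 on the log2 scale (SE, n = 5 and 5), while Ctsk was higher by 2.03 ± 0.47 without passing the threshold. The ubiquitous members ranged from Ctsl at 1.21 ± 0.49 down to Ctsa at -0.67 ± 0.37, none of them called. In AA kidneys Ctss, Ctsk and Ctsl were called higher than in C, beside 10.2% of all genes tested. No member was called between AA and M, beside 11.7% of genes called higher in AA and 1.07% lower. Within each library, the balance between the 4 macrophage-linked and the 5 ubiquitous members was shifted toward the former in all 10 adenine-fed kidneys compared with the 5 C kidneys. That grouping was made with earlier results of these kidneys known, so the shift was not tested. Of the 4, Ctsz did not gain in its mean share of the summed FPKM of the 9 genes.

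All 15 libraries were used. Fragment numbers recovered from the FPKM steps, which are right up to a common factor, ran from 13647043 to 28884376 a library. The mitochondrial genome took 53.0% to 62.5% of them in C, 64.0% to 86.8% in M and 69.2% to 87.2% in AA, so fragments on other genes had medians of 8894365, 2770067 and 3278828. M1, M2 and M3 stood apart, with between 10068 and 12222 genes above 0, whereas M5 had 25460. Kap, the androgen-regulated protein of proximal tubule cells, was at 81.2 FPKM or more in all 15 libraries, so the kidney label was met. C4 stood apart among the controls in immune genes, with Cd74 (the invariant chain of MHC class II) at 153 FPKM beside 9.58 to 20.7 in the other C kidneys. M vs. C values of the members are therefore also given with M1 to M3 and with M4 and M5 alone, and results that changed without C4 are given without it.

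FPKM counts fragments per kilobase of transcript, scaled to a size of the library, so levels of different genes can be compared. In these data that size followed the fragments outside the mitochondrial genome more closely than all fragments. Differences are given as limma log2 fold changes of FPKM + 1, which understate the change of low genes. A gene was called at a Benjamini-Hochberg adjusted p, over all genes tested, of 0.05 or less if its log2 fold change was also 1 or more in size, up or down. With M4 and M5 alone, 0 of 20868 genes were called in M vs. C in either direction. A missing call there therefore does not set a member apart. With M1 to M3 alone, 699 of 17103 genes were called higher and 2705 lower. The numbers with all M kidneys were 57 and 234 of 21153. All 9 members were above 0 in all 15 libraries and were tested in each comparison. M vs. C and AA vs. C share the same C kidneys, and AA vs. M shares kidneys with both. By limma, 3493 of the 21153 genes tested in M vs. C had an unadjusted p below 0.05. In AA vs. M these were 6360 of 19798, and in AA vs. C 10243 of 21898. Counts of such genes in the lists below stand beside these numbers.

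**Figure D1:**
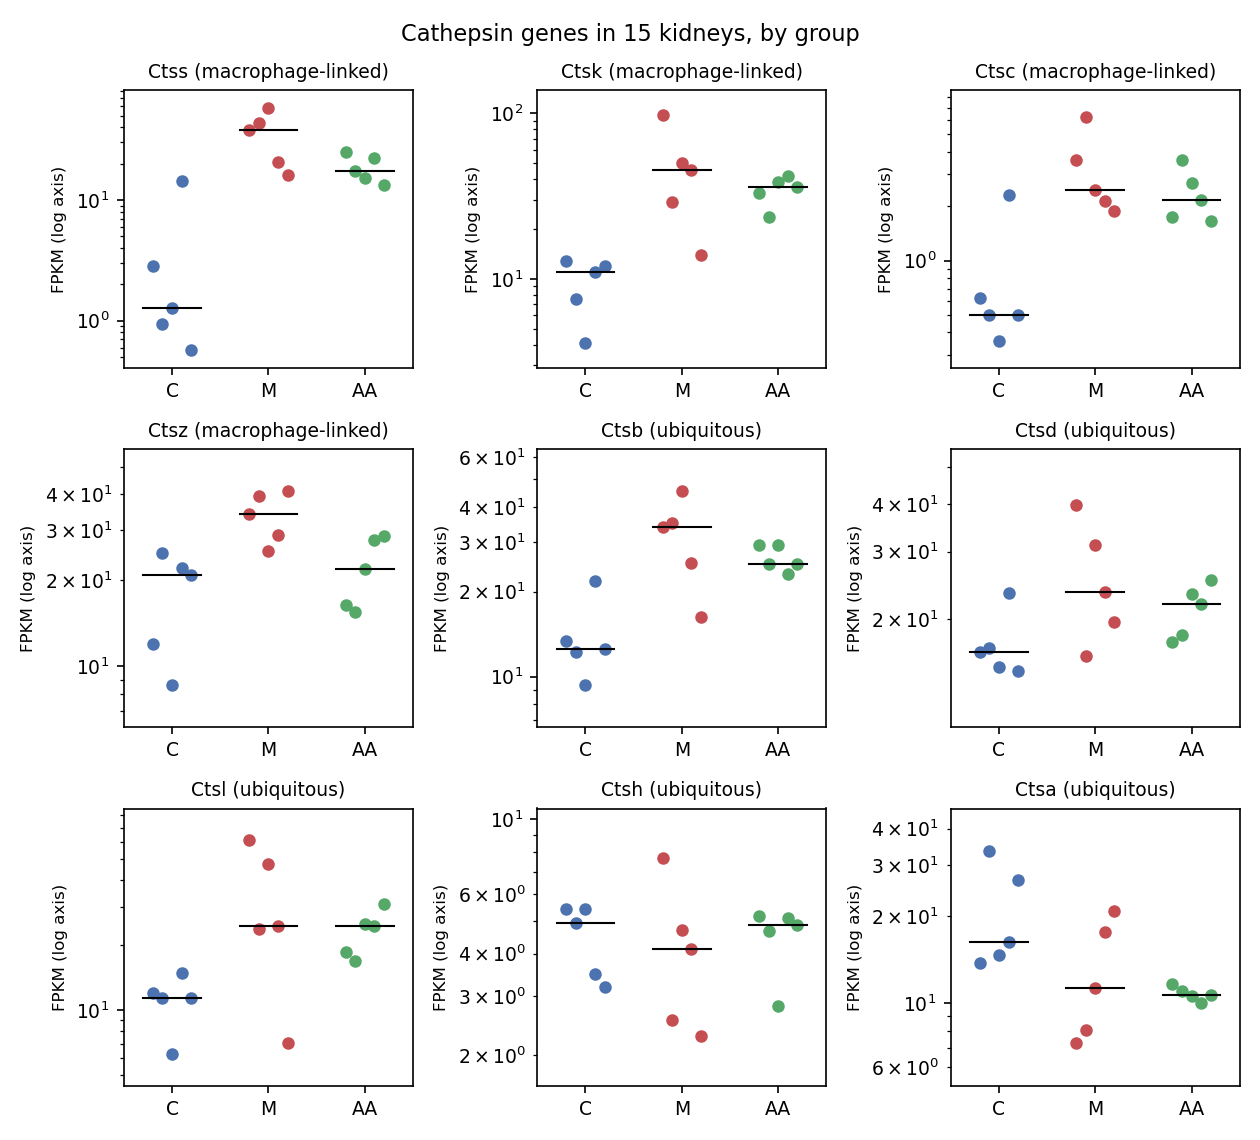
FPKM of the 9 cathepsin genes in each library (points, log axis, a separate scale for each gene) in the C, M and AA groups, with a line at the median of 5. In M, Ctss, Ctsk and Ctsz lie wholly above C, whereas Ctsa in AA lies wholly below C and Ctsh overlaps across all groups.

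Ctss encodes cathepsin S, a cysteine endopeptidase that stays active at neutral pH and trims the invariant chain in antigen-presenting cells. Its levels in C1 to C5 were 2.87, 0.934, 1.27, 14.3 and 0.572 FPKM. In M1 to M5 they were 38.0, 43.6, 57.6, 20.5 and 16.1 FPKM. In AA1 to AA5 they were 24.9, 17.2, 15.2, 22.3 and 13.2 FPKM. Every M kidney lay above every C kidney, with M4 and M5 the lowest of the M group and C4 far above the other controls. AA overlapped C only through C4, and AA3 and AA5 lay just below the lowest M kidney while the other AA values fell within the M range. Means were 3.98 ± 5.82 in C, 35.2 ± 17.1 in M and 18.6 ± 4.90 FPKM in AA (SD, n = 5 each).

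Ctss was called between M and C (limma, adjusted p = 0.0225) as well as in AA vs. C, where the log2 fold change was 2.52 ± 0.52 (SE; limma, adjusted p = 0.00373). The call in AA vs. C held under all 24 alternative settings, with values from 1.80 to 3.24. The call in M vs. C held under 19 of 26, and the direction under all of them, with values from 2.52 to 4.05. It was lost when C2, C5, M1, M2 or M3 was left out, with an adjusted p of at most 0.0768, and when the M group was reduced to M4 and M5, with a log2 fold change of 2.52 ± 0.77 and an adjusted p of 0.227 by limma. Without C4 the M vs. C difference was 3.85 ± 0.43 (limma, adjusted p = 0.00479). Ctss in C rested on few fragments, from 26 in C5 to 656 in C4.

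The mouse Ctss gene lies at chr3:95526786-95556403 on the plus strand of mm10, with the annotated pseudogene Hmgb1-ps5 inside its span but not over its exons. Ctsk ends 17423 bases upstream of it on the same strand, with 0 protein-coding genes between them, so that the members with the largest differences are neighbours. RefSeq promoter sequences (GRCm38.p6) were at hand for 7 of the 9 members. They were searched on both strands over the 250 bases before each start for CACGTG (the E-box core), TCACGTGA (the core of the lysosomal CLEAR element, which contains the former), GAGGAAGT (a PU.1 site) and GAAANNGAAA (a pair of interferon regulatory factor half-sites). The sequence just before the Ctss start is shown because Ctss moved most, with the single GAAANNGAAA match of the member promoters in capitals, 21 to 12 bases before the start at chr3:95526666-95526785 on the plus strand.
Ctss: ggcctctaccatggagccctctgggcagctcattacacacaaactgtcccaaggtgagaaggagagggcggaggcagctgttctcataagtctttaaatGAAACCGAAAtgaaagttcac
This pattern occurred in 2.98% of 32851 promoters of the same length, and a match is only a description of the letters.

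Ctsk encodes cathepsin K, the collagen-cleaving cysteine protease by which osteoclasts resorb bone. Its levels in C1 to C5 were 12.8, 7.59, 4.06, 10.9 and 11.9 FPKM. In M1 to M5 they were 98.1, 29.0, 50.2, 45.4 and 13.9 FPKM. In AA1 to AA5 they were 33.2, 23.5, 38.6, 41.6 and 35.7 FPKM. Both adenine-fed groups lay wholly above C, although M5 exceeded the highest control by little. The M values spread from 13.9 to 98.1 FPKM, and all 5 AA values fell inside that span.

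Ctsk missed the threshold in M vs. C (limma, adjusted p = 0.0553) at a log2 fold change of 2.03 ± 0.47 with a 95% interval from 1.01 to 3.05. It was called in AA vs. C at 1.83 ± 0.29 (limma, adjusted p = 0.00111), where the spread within AA was small. That call held under 23 of 24 alternatives, the exception being a rescaling of every library to the same FPKM total (TPM). In M vs. C, 8 of 26 alternatives called it, among them M1 to M3 alone (2.44), whereas with M4 and M5 alone it was at 1.42 and not called. The summed FPKM of Acp5 and 4 other osteoclast genes ran from 0 to 6.31 in M with a median of 0, from 1.49 to 5.71 in C and from 0.749 to 5.04 in AA. Acp5 was at 0 in M1 to M3, the libraries with few genes detected. It was at 5.65 FPKM in C4 and 4.70 in M5, beside Ctsk at 10.9 and 13.9. None of the 5 was called in any comparison by limma, and 0 had an unadjusted p below 0.05 in M vs. C.

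Ctsc encodes dipeptidyl peptidase I, which activates the granule serine proteases of neutrophils and cytotoxic lymphocytes. It was the lowest member by mean in all groups. Its levels were 0.622, 0.497, 0.358, 2.31 and 0.499 FPKM in C1 to C5. They were 3.59, 6.24, 2.46, 2.14 and 1.89 FPKM in M1 to M5, and 1.74, 3.63, 2.70, 2.17 and 1.65 FPKM in AA1 to AA5. With C4 set aside, all adenine-fed kidneys lay above the controls, but C4 overlapped both groups. The log2 fold change was 1.20 ± 0.35 in M vs. C (limma, adjusted p = 0.113) and 0.92 ± 0.27 in AA vs. C (limma, adjusted p = 0.0221), the latter just under the fold limit. With M1 to M3 alone the M vs. C value was 1.48 and called, and with M4 and M5 alone it was 0.78 and not called. Without C4 it was called in AA vs. C, with a log2 fold change of 1.15.

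Ctsz encodes cathepsin X, a carboxypeptidase of monocytes and macrophages. C1 to C5 had 12.0, 24.9, 8.62, 22.2 and 20.9 FPKM. M1 to M5 had 34.1, 39.6, 25.3, 28.9 and 41.04 FPKM. AA1 to AA5 had 16.4, 15.5, 22.0, 27.7 and 28.7 FPKM. M lay wholly above C, with only a narrow gap between C2 and M3, while AA overlapped both other groups. The log2 fold change was 0.97 ± 0.33 in M vs. C (limma, adjusted p = 0.178), and in AA vs. C it was 0.35 ± 0.31 (limma, adjusted p = 0.389). With M1 to M3 alone the M vs. C value was 0.93 and with M4 and M5 alone 1.018, neither called. The M vs. C value also depended on the scaling, at 0.00029 under the rescaling to TPM. It was 1.98 when FPKM was divided by the share of fragments outside the mitochondrial genome, which counts the mitochondrial share a second time.

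Among the ubiquitous members, Ctsb encodes cathepsin B, a cysteine protease that acts both within chains and at their ends. C1 to C5 had 13.4, 12.3, 9.31, 21.8 and 12.5 FPKM. M1 to M5 had 33.9, 35.2, 45.6, 25.3 and 16.3 FPKM. AA1 to AA5 had 29.4, 25.1, 29.3, 23.1 and 25.1 FPKM. AA was the tightest group, at 26.4 ± 2.79 FPKM (SD, n = 5), and lay wholly above C, whereas M5 fell below C4. In AA vs. C the log2 fold change of 0.93 ± 0.23 passed the adjusted p (limma, 0.00954) but not the fold limit. In M vs. C it was 1.09 ± 0.33 (limma, adjusted p = 0.132), at 1.44 and called with M1 to M3 alone, at 0.57 and not called with M4 and M5 alone, and at 0.13 under the TPM rescaling. Without C4 it was called in AA vs. C at 1.10.

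Ctsl encodes cathepsin L, an endopeptidase abundant in the kidney. C1 to C5 had 12.1, 11.4, 6.27, 14.9 and 11.4 FPKM. M1 to M5 had 61.5, 23.9, 47.6, 24.6 and 7.05 FPKM. AA1 to AA5 had 18.7, 16.9, 25.2, 24.5 and 31.03 FPKM. M5 sat among the controls while M1 was the highest of all kidneys, so the M mean of 32.9 ± 21.5 FPKM (SD, n = 5) describes a wide group. The log2 fold change was 1.21 ± 0.49 in M vs. C (limma, adjusted p = 0.243). It was 1.84 and called with M1 to M3 alone, 0.28 and not called with M4 and M5 alone, and 0.25 under the TPM rescaling. In AA vs. C, where AA lay wholly above C, it was 1.00 ± 0.26 and called (limma, adjusted p = 0.0107), at the very edge of the fold limit. That call held under 15 of 24 alternatives. It was lost without C3, AA3, AA4 or AA5, where the log2 fold change fell below 1 with adjusted p values of at most 0.0253, and under the TPM rescaling the value was -0.03.

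Ctsd encodes cathepsin D, the aspartic protease of the lysosome. It had 16.4, 16.8, 14.95, 23.3 and 14.6 FPKM in C1 to C5. M1 to M5 had 39.7, 16.0, 31.3, 23.6 and 19.6 FPKM, and AA1 to AA5 had 17.4, 18.2, 23.2, 21.8 and 25.3 FPKM. The groups overlapped in each comparison, and the log2 fold changes of 0.52 ± 0.30 for M vs. C and 0.29 ± 0.21 for AA vs. C were not called. The M vs. C value was 0.65 with M1 to M3 alone and 0.33 with M4 and M5 alone, neither called. Part of this signal is uncertain in origin, since 34.4% of the exon bases of Ctsd lie under the same-strand gene model Gm49369. Overlaps on the opposite strand covered 26.9% of the exon bases of Ctsl, 17.4% of Ctsa and 12.8% of Ctsb, and whether the counting used strand is not given in the sources used here.

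Ctsh encodes an aminopeptidase, cathepsin H. C1 to C5 had 5.41, 4.94, 5.42, 3.48 and 3.19 FPKM. M1 to M5 had 7.68, 2.55, 4.70, 4.13 and 2.28 FPKM. AA1 to AA5 had 5.16, 4.66, 2.80, 5.10 and 4.87 FPKM. The group means were alike, at 4.49 ± 1.08, 4.27 ± 2.17 and 4.52 ± 0.980 FPKM (SD, n = 5 each). The log2 fold change in AA vs. C was 0.01, with a 95% interval from -0.47 to 0.49, and in M vs. C it was -0.13, with an interval from -0.81 to 0.56. With M1 to M3 alone the M vs. C value was 0.05 and with M4 and M5 alone -0.40. The sign changed with the scaling in all 3 comparisons.

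Ctsa encodes cathepsin A, a serine carboxypeptidase that also serves as the protective protein of the sialidase Neu1 and of beta-galactosidase. C1 to C5 had 13.7, 33.5, 14.6, 16.3 and 26.6 FPKM. M1 to M5 had 7.26, 8.06, 11.2, 17.5 and 20.7 FPKM. AA1 to AA5 had 11.6, 11.0, 10.5, 10.01 and 10.7 FPKM. Ctsa was the one member whose AA values lay wholly below C, and it split the M group, with M1 to M3 under all controls and M4 and M5 within them. The log2 fold change in AA vs. C was -0.82 ± 0.26 (limma, adjusted p = 0.0289), short of the fold limit, and in M vs. C it was -0.67 ± 0.37 (limma, adjusted p = 0.384). Dividing FPKM by the share of fragments outside the mitochondrial genome counts the mitochondrial share a second time. In that setting the log2 fold change of Ctsa turned positive, to 0.18 and 0.33. Other settings took it further down: in AA vs. C it was called at -1.89 under the TPM rescaling (limma, adjusted p = 0.000692) and at -1.82 by limma voom (adjusted p = 0.000188). In M vs. C it was called at -1.56 by limma voom (adjusted p = 0.0447) and at -1.09 with M1 to M3 alone (limma, adjusted p = 0.0386), and was at -1.65 under the TPM rescaling and -0.04 with M4 and M5 alone, neither called. Neu1 was lower in AA than in C as well, at -2.08 ± 0.40 and called (limma, adjusted p = 0.00253).

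The windows around the other promoter matches are shown because the ubiquitous members Ctsd, Ctsl and Ctsa held the E-box core and no macrophage-linked member did. The patterns were chosen with the promoters in view, so this split is only a description. Ctsd is shown at its match 99 to 92 bases before the start (chr7:142387908-142387937, minus strand), Ctsl at 236 to 231 bases (chr13:64370739-64370768, minus strand), Ctsa at 13 to 6 bases before its second RefSeq start (chr2:164833743-164833772, plus strand), and Ctsc at its GAGGAAGT match, read on the other strand, 151 to 144 bases before the start (chr7:88277923-88277952, plus strand). Capitals mark the matched letters.
Ctsd: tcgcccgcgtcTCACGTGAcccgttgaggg
Ctsl: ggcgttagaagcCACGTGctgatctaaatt
Ctsa: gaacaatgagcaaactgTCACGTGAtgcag
Ctsc: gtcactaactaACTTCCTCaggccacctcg
CACGTG occurred in 6.02%, TCACGTGA in 0.785% and GAGGAAGT in 2.44% of the 32851 promoters. Ctsd held a further CACGTG 245 to 240 bases before its start. Ctsk and Ctsz held none of the patterns in this window, and the promoters of Ctsb and Ctsh were not used here.

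Counted together, 1 of the 9 members (Ctss) was called higher in M than in C, beside 0.269% of the 21153 genes tested, and 0 were called lower, beside 1.11%. Groups that did not overlap, with M higher, were seen for Ctss, Ctsk and Ctsz, beside 1.05% of all genes, and no member lay wholly lower, beside 3.67%. At an unadjusted p below 0.05 there were 6 members, beside 3493 of the 21153 genes tested. Leaving out M5 brought Ctsk (2.39), Ctsb (1.30) and Ctsl (1.65) past the threshold beside Ctss. The median log2 fold change was 1.61 for the 4 macrophage-linked members, 0.52 for the 5 ubiquitous members and -0.12 for all genes tested. Ctss had the highest and Ctsa the lowest value of the members under all 6 library scalings plotted.

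Between AA and C, 3 members (Ctss, Ctsk and Ctsl) were called higher, beside 10.2% of the 21898 genes tested, and 0 lower, beside 9.61%. Ctsk, Ctsb and Ctsl lay wholly above C, beside 11.5% of all genes, and Ctsa wholly below, beside 12.5%. The background of this comparison is wide, with about as many genes called up as down. The median log2 fold change was 1.37 for the macrophage-linked members, 0.29 for the ubiquitous members and 0.09 for all genes.

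In AA vs. M, 0 members were called by limma in either direction, beside 11.7% of the 19798 genes tested called higher and 1.07% called lower. An unadjusted p below 0.05 was seen for 0 members, beside 6360 of the 19798 genes. With limma voom on the recovered fragments the number of members called was also 0. No member had groups that did not overlap, beside 11.9% with AA higher and 1.31% with AA lower. Ctss had the lowest value, -0.78 ± 0.38, with a 95% interval from -1.60 to 0.05. Ctsz followed at -0.61 ± 0.31, with an interval from -1.28 to 0.05. The other 7 members lay between -0.28 and 0.14, and their intervals, which all included 0, reached from -1.24 to 0.85 at the widest.

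The AA vs. M value of Ctss depended on which M kidneys were used. Against M1 to M3 alone it was -1.29 ± 0.30 and called (limma, adjusted p = 0.00748), and against M4 and M5 alone it was 0.00 ± 0.33 (limma, adjusted p = 0.995). M1 to M3 had 38.0 to 57.6 FPKM of Ctss and M4 and M5 had 16.1 to 20.5, while the AA kidneys had 13.2 to 24.9. M1 to M3 are the libraries with few genes detected, and the part of this in the result was not tested.

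**Figure D2:**
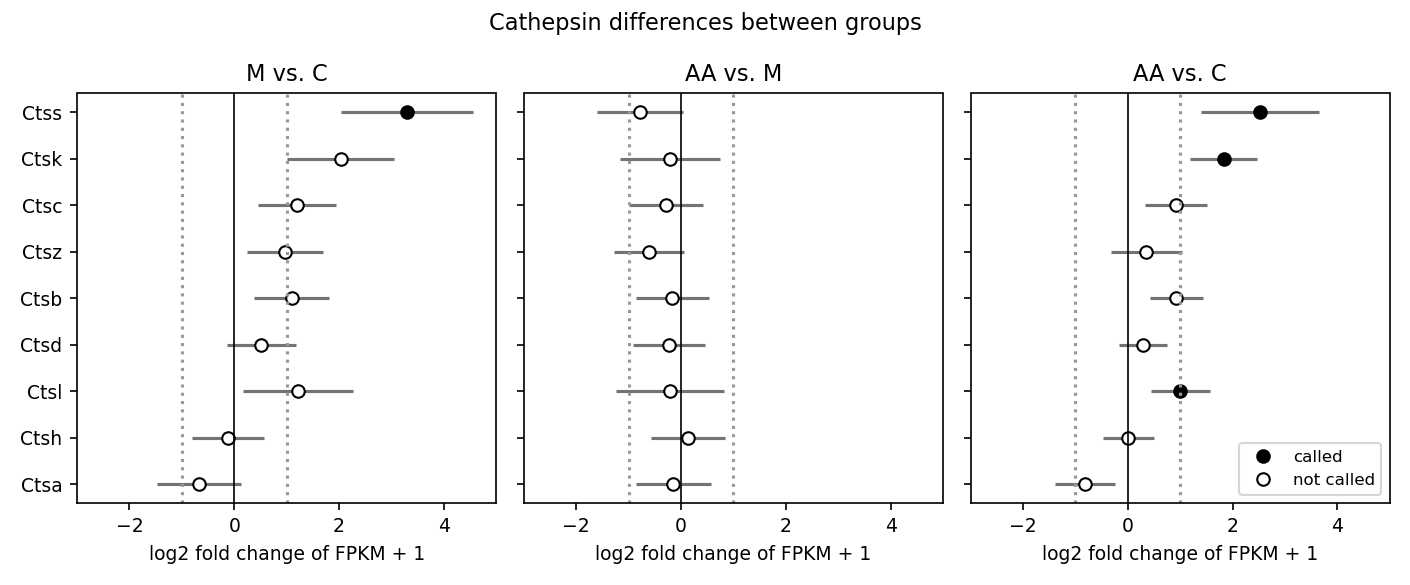
limma log2 fold changes of FPKM + 1 for the 9 members in the 3 comparisons (points; bars are 95% confidence intervals; dotted lines mark the fold limit of 1). Filled points are called genes: Ctss in M vs. C, and Ctss, Ctsk and Ctsl in AA vs. C, with none in AA vs. M.

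Quantities formed within a library do not depend on how libraries are scaled against each other, apart from the pseudocount. The mean log2(FPKM + 1) of the 4 macrophage-linked members minus that of the 5 ubiquitous members was -1.11, -1.51, -1.57, -0.43 and -1.30 in C1 to C5. It was 0.29, 0.86, 0.06, 0.01 and 0.20 in M1 to M5. It was -0.10, -0.08, 0.00, 0.15 and -0.27 in AA1 to AA5. Both adenine-fed groups lay wholly above C, C4 included, and AA overlapped M. The C mean was -1.18 ± 0.46, the M mean 0.29 ± 0.34 and the AA mean -0.06 ± 0.15 (SD, n = 5 each). Since the grouping was made with earlier results of these kidneys known, no test was applied to this difference.

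The same shift was seen in the make-up of the summed cathepsin FPKM. The sum over the 9 members was 64.9 to 129 FPKM in C, 139 to 324 in M and 136 to 178 in AA, so that M and AA both lay above all controls. Macrophage-linked members made up 22.1% to 38.4% of it in C, 49.1% to 58.0% in M and 44.1% to 52.6% in AA. Ctss, Ctsk and Ctsc had higher mean shares in M and AA than in C. Ctsz did not, with mean shares of 17.3% ± 3.99, 16.7% ± 8.21 and 13.3% ± 2.57 in C, M and AA (SD, n = 5 each). Ctsa made up 12.6% to 29.7% in C, 2.24% to 14.9% in M and 5.61% to 8.09% in AA. The share of Ctsb stayed close by, with means of 13.9% ± 2.34, 13.8% ± 2.96 and 16.3% ± 2.56 in C, M and AA (SD, n = 5 each). By mean FPKM the leading member was Ctsa in C (20.95 ± 8.74), Ctsk in M (47.3 ± 31.8) and Ctsk in AA (34.5 ± 6.91). In each group it overlapped the next in order, which was Ctsz in C, Ctss in M and Ctsb in AA.

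Set against Ctsb in the same library, Ctss was at a log2 ratio of -2.22, -3.71, -2.87, -0.61 and -4.45 in C1 to C5. The ratio was 0.17, 0.31, 0.34, -0.31 and -0.02 in M1 to M5. It was -0.24, -0.55, -0.95, -0.05 and -0.93 in AA1 to AA5. Thus Ctss was at or near the level of Ctsb in M, and all M kidneys lay above all C kidneys. AA overlapped C only at C4.

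**Figure D3:**
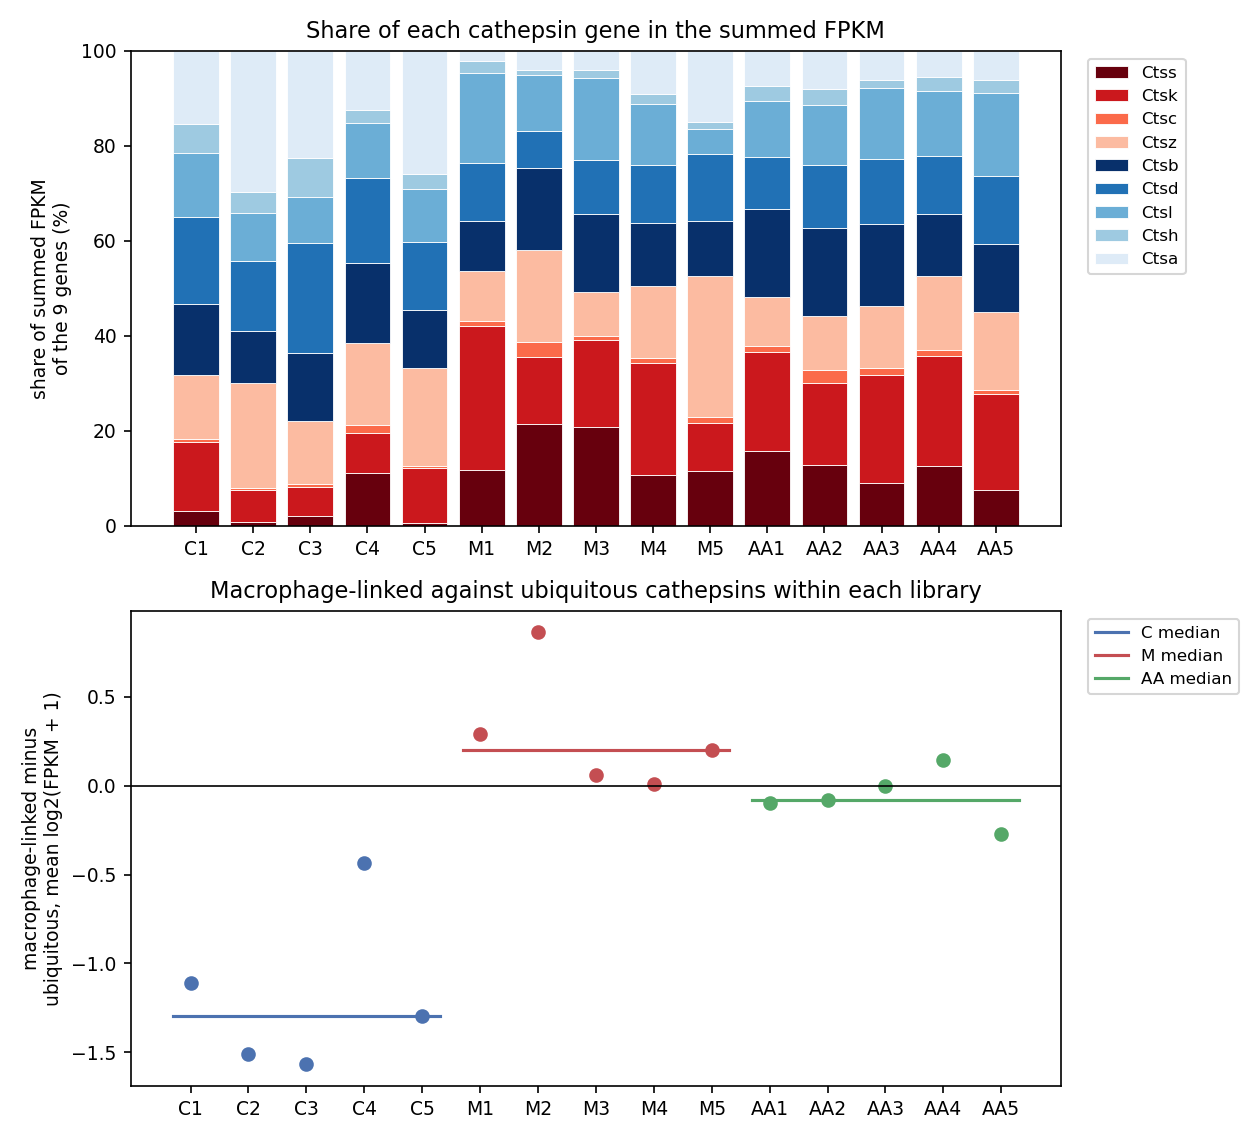
Upper panel: share of each member in the summed FPKM of the 9 genes in each library (%, stacked bars; reds are macrophage-linked, blues ubiquitous). Lower panel: mean log2(FPKM + 1) of macrophage-linked minus ubiquitous members per library (points) with group medians (lines), which lie at -1.30 in C, 0.20 in M and -0.08 in AA.

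The scaling of the libraries mattered for the ubiquitous members and for Ctsz. Under the TPM rescaling the median log2 fold change of all genes moved to -0.58 for M vs. C and -0.39 for AA vs. C, and that of Ctss was 2.65 and 1.80. Under the division by the share of fragments outside the mitochondrial genome the median of all genes was 0.07 and 0.45, and Ctss was at 4.05 and 3.24. That division counts the mitochondrial share a second time, since the FPKM divisor already followed these fragments. Ctss, Ctsk and Ctsc were above 0 under each of the 6 scalings in both comparisons. Ctsd, Ctsh and Ctsa changed sign with the scaling in M vs. C, and Ctsz, Ctsb, Ctsd, Ctsl, Ctsh and Ctsa did so in AA vs. C. Apart from Ctsh, these changes came only under the TPM rescaling or under that division. With mitochondrial genes left out, after quantile normalization and after centring on the library median, Ctsd in M vs. C was at 0.60, 0.66 and 0.88. Ctsa was at -0.59, -0.41 and -0.31 under the same settings.

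**Figure D4:**
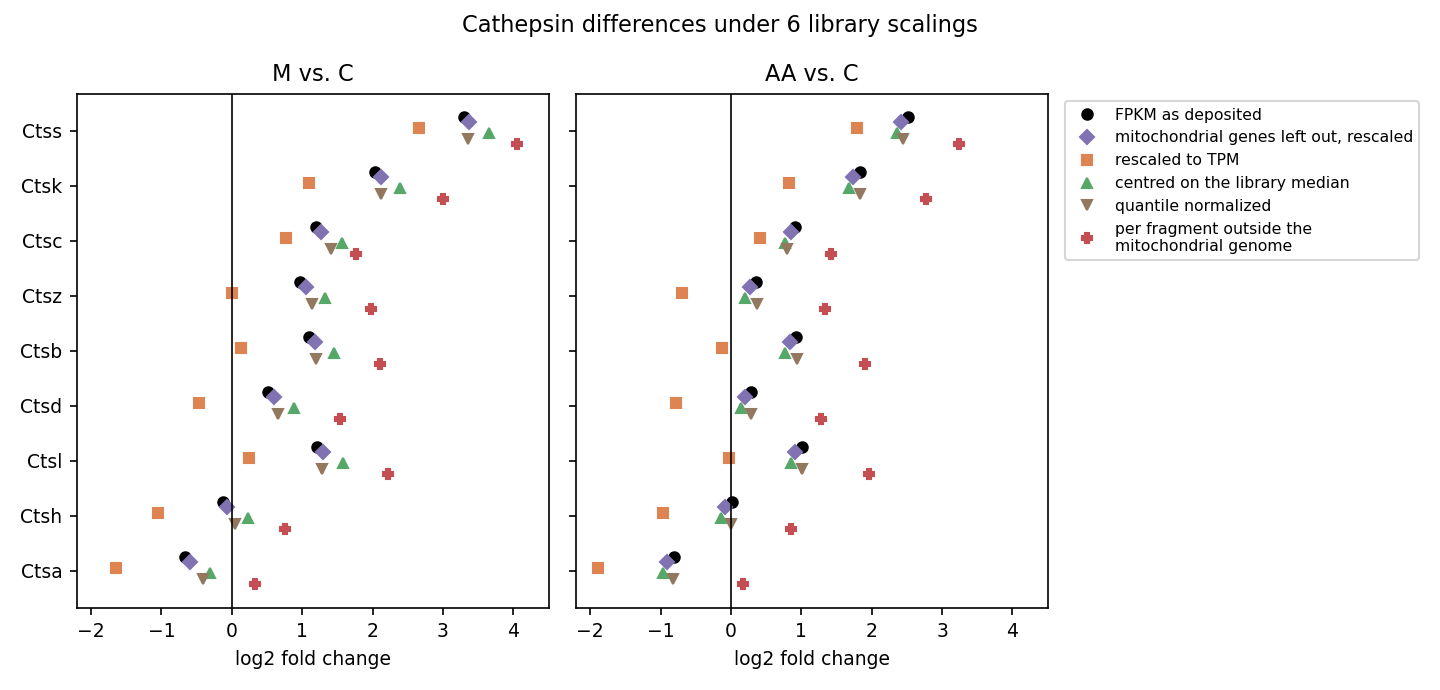
log2 fold changes of the 9 members in M vs. C and AA vs. C under 6 library scalings (symbols). Ctss, Ctsk and Ctsc stay above 0 throughout, while Ctsa lies below 0 except per fragment outside the mitochondrial genome (0.33 and 0.18). That setting divides FPKM by the share of these fragments, which counts the mitochondrial share a second time.

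Cell type markers moved alongside. Of 14 macrophage markers, 5 were called higher and 0 lower in M vs. C, and their summed FPKM was 20.97 to 114 in C, 156 to 432 in M and 111 to 167 in AA. Lyz2 (lysozyme) had a log2 fold change of 4.32, C1qb and C1qc (complement C1q chains) 2.73 and 2.42, and Clec7a (a beta-glucan receptor) 2.67, all called. Adgre1 (F4/80) at 1.59 and Cd68 (a lysosomal membrane protein of macrophages) at 1.73 were not called, and Adgre1 was at 0 in C2. Csf1r (the receptor of macrophage colony-stimulating factor) at -1.01 and Mertk (a receptor for dying cells) at -0.51 had negative values and were not called. In AA vs. C, 5 macrophage markers were called higher and 1, Csf1r, lower at -1.52, while in AA vs. M 1 of 14, C1qb, was called, lower at -1.36. None of the 14 was at 0 throughout a group.

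Of 8 proximal tubule markers, 5 were called lower for M vs. C and 6 for AA vs. C, with none higher. Their summed FPKM was between 2878 and 11639 in C, between 81.6 and 506 in M and between 134 and 501 in AA, so that M and AA lay wholly below C. Slc34a1 (the sodium-phosphate cotransporter) had a log2 fold change of -5.65, Kap -4.46, Slc22a6 and Slc22a8 (organic anion transporters) -3.67 and -3.63, and Lrp2 (megalin) -2.08 in M vs. C. Of 2 loop of Henle genes, Slc12a1 (the cotransporter of sodium, potassium and chloride) was called lower in AA vs. C. The part of either cell type in the cathepsin values was not tested.

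Other cell types were measured with short lists. Fibroblast markers were called higher in AA vs. C for 5 of 5 genes, among them Col1a1 (a fibrillar collagen chain) at 2.49, and for 0 of 5 in M vs. C, where 2 had an unadjusted p below 0.05. In AA vs. M, 1 of 5, Col1a1, was called higher at 1.45 (limma, adjusted p = 0.0433), and 4 had an unadjusted p below 0.05. T cell markers Cd3g and Cd3e were called higher in AA vs. M, at 2.51 and 1.23, and in AA vs. C. The other genes of that list of 4 were not called in AA vs. C, Cd3d at -0.23 and Cd2 at -0.37, and did not pass the filter for a test in AA vs. M, with means of 0.0808 and 0.135 FPKM in AA and 0.306 and 1.34 FPKM in M. Of 5 neutrophil markers, Elane (neutrophil elastase) was called higher and S100a9 lower in AA vs. C, with 0 called and 1 at an unadjusted p below 0.05 in M vs. C, and Mpo was at 0 in all C and M kidneys. Of 4 B cell markers, Cd79b was called lower in AA vs. C and was at 0 in all AA kidneys. The part of these cell types in the cathepsin values was not tested.

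The genes most like Ctss across the 15 libraries, by Pearson's r of log2(FPKM + 1) among 14168 protein-coding genes above 0 in at least 10 libraries, were Lyz2 (r = 0.99), Mpeg1 (the phagocyte pore-former perforin-2, 0.94), C1qc (0.93), Fcgr3 (an Fc receptor, 0.92) and Fgl2 (a fibrinogen-like protein, 0.92). Those most like Ctsb were Fgl2 (0.96), Lyz2 (0.95), Cald1 (caldesmon, 0.95), Hmgn1 (a nucleosome-binding protein, 0.93) and Pmp22 (a membrane protein, 0.92). Points share the group differences and the scaling of their library, so these values are a description.

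Of 9 cathepsin inhibitors, 3 were at 0 in all libraries and 4 were tested in M vs. C, where limma called 0 and 2 had an unadjusted p below 0.05. Between AA and C, 1 of 3 tested was called higher: Cstb (stefin B), with 3.75 to 10.8 FPKM in C and 13.3 to 31.6 in AA, at 1.24 ± 0.31 (limma, adjusted p = 0.00917). In M Cstb had 10.8 to 63.8 FPKM and was not called (1.63 ± 0.47). Cst3 (cystatin C), the most abundant inhibitor, was at 0.78 ± 0.40 for M vs. C and 0.28 ± 0.24 for AA vs. C and was not called.

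Of 5 processing partners and substrates, limma called 0 in M vs. C, where 3 had an unadjusted p below 0.05, and 0 in AA vs. M, where 0 did, and 1, Neu1, was called lower in AA vs. C. Lgmn (legumain, which processes several cathepsins) had log2 fold changes of 0.53 ± 0.33 for M vs. C and 0.80 ± 0.28 for AA vs. C, neither called. Cd74, the substrate of cathepsin S, was at 1.44 ± 0.58 and 1.18 ± 0.58 and was not called. Of 6 genes of mannose 6-phosphate delivery, Gnptg (a subunit of the enzyme that makes the tag) was the one called, lower in AA vs. C at -1.65 ± 0.39.

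Among 18 other lysosomal hydrolases, 0 were called in any comparison by limma, with 2, 0 and 11 at an unadjusted p below 0.05 for M against C, AA against M and AA against C, and their median log2 fold change was -0.17 for M vs. C and 0.23 for AA vs. C. Of 8 genes for lysosomal membrane proteins and lipid carriers, 0 were called in M vs. C by limma, with 2 at an unadjusted p below 0.05. In AA vs. C, Lamp2 (1.26), Npc2 (a cholesterol carrier, 1.12) and Scarb2 (the receptor of glucocerebrosidase, 1.08) were called higher and Mcoln1 (a calcium channel, -1.23) lower, while Lamp1 at 0.75 ± 0.26 was not called. Of 9 proton pump subunits, Atp6v0b (-2.58) and Atp6v0a1 (-1.61) were called lower in AA vs. C, and 0 were called in M vs. C, where 3 had an unadjusted p below 0.05.

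Of 7 transcription factors, Tfeb, the activator of lysosomal genes through the CLEAR element, had 1.56 to 4.48 FPKM in C, 0 to 3.58 in M and 0.0391 to 1.23 in AA. It was called lower in AA vs. C at -1.24 ± 0.28 (limma, adjusted p = 0.00571), as was its relative Tfec at -1.004. Spi1, which encodes PU.1, had 0.314 to 2.47 FPKM in C, 1.47 to 6.12 in M and 0.793 to 3.09 in AA, and at 1.11 ± 0.37 for M vs. C and 0.69 ± 0.31 for AA vs. C it was not called. Of the 7, limma called 0 in M vs. C or AA vs. M, with 1 and 0 at an unadjusted p below 0.05.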

How the data were processed

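Total RNA of 15 mouse kidneys (5 each of C, M and AA) was sequenced as poly(A)-selected libraries. Per the labels and methods, the authors trimmed reads with fastp, aligned them with HISAT2 2.0.5 to mm10, counted them with featureCounts 1.5.0-p3 and deposited gene values as FPKM. No column was left unused (0). Identifiers were matched to GENCODE M21 for 54495 of 54532 genes.

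Because FPKM are not counts, log2(FPKM + 1) was fitted with limma 3.58.1 (R 4.3.3, intensity trend) on the 10 libraries of each comparison, for genes above 0 in at least 5. Intervals are 95%. A gene was called at a Benjamini-Hochberg adjusted p of 0.05 or less if its log2 fold change was also 1 or more in size. The procedure was tested on simulated data. Between 97.6% and 98.9% of low FPKM values were whole multiples of the value of 1 fragment, which gave fragment numbers up to a factor that could not be settled. The value of 1 fragment, in FPKM times bases, was 31.1 in C1, 86.2 in M1 and 110.88 in AA2. These libraries had similar fragment numbers (18165600, 17895200 and 17418100), but 6951340, 2496660 and 2225760 outside the mitochondrial genome. The divisor of the deposited FPKM thus followed the fragments outside the mitochondrial genome more closely than all fragments. The mitochondrial share differed between groups, and 6 scalings were compared.

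The named genes were all 9 members, up to 4 called genes with the largest change of each other list, fixed examples (Lgmn, Cst3, Cstb, Cd74, Lamp1, Spi1, Tfeb, Adgre1, Cd68 and Lrp2) and the 5 genes most like Ctss and Ctsb. Members, lists and promoter motifs were chosen with earlier results of these data known, the motifs also with the promoters in view. Alternatives covered the pseudocount, filters, scaling, the fit, each library left out, M1 to M3 or M4 and M5 alone, and a replicate block. Voom on recovered fragments, division by the share of fragments outside the mitochondrial genome, and leaving out each mouse for the within-library difference were added after seeing the data. Replicates are separate mice by their labels.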

Additional observations from a re-analysis of the deposited data

Results flagged for a closer look

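Among 33 sets of 5 kidneys (each member and both within-library quantities in each group), 4 held a kidney far from the other 4 of its group, by Dixon's ratio at its 95% limit. Chance gives such a gap in about 1 set in 20. In C, 3 of the 4 were highest in mouse C4: Ctss at 14.3 FPKM, beside 0.572 to 2.87 in the others, Ctsc at 2.31 FPKM, beside 0.358 to 0.622, and Ctsd at 23.3 FPKM, beside 14.6 to 16.8. C4 also had the highest Lyz2 of the controls, at 49.6 FPKM beside 2.63 to 7.12, and Cd74 at 153 FPKM. In AA, Ctsh was lowest in AA3, at 2.80 FPKM beside 4.66 to 5.16 in the others. The cause of these gaps was not tested.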

How the results depend on the processing

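Ctss, Ctsk and Ctsc kept their direction in M vs. C and AA vs. C under every alternative run. Ctsz, Ctsb and Ctsl did so in M vs. C only, where their lowest values were 0.00029, 0.13 and 0.25. The number of members called in M vs. C, 1 with the settings used above, was 0 when genes above 0 in any library were tested and 0 with M4 and M5 only. It was 2 for genes with a mean FPKM of at least 1, with mitochondrial genes left out and the rest rescaled, after quantile normalization, with centring on the library median, with library quality weights and with limma voom on recovered fragments. It was 4 with all 15 libraries in one fit and 6 with M1 to M3 only. The number of all genes called changed too, from 57 higher and 234 lower of 21153 with the settings used above. It was 139 and 647 of 21153 with the one fit, and 34 and 1782 of 21153 with limma voom. With M1 to M3 only it was 699 and 2705 of 17103, and with M4 and M5 only 0 and 0 of 20868. Leaving out 1 kidney gave 0 to 4 members called, with 0 without C2, C5, M1, M2 or M3 and 4 without M5. In AA vs. M the count of 0 became 1 with M1 to M3 only. In AA vs. C the count of 3 became 7 under the division by the share of fragments outside the mitochondrial genome, which counts the mitochondrial share a second time. Leaving out 1 kidney there gave 2 to 5, with 5 without C4. The macrophage-linked minus ubiquitous difference of 1.47 (M minus C) and 1.12 (AA minus C) became 0.94 and 0.77 with Ctsh counted as macrophage-linked. The cause of these changes was not tested, except that leaving kidneys out leaves fewer samples.

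The following values changed sign, also called or larger ones such as Ctsl, Ctsb and Ctsa against C. Values named per fragment outside the mitochondrial genome are those of the division by their share. In M vs. C, Ctsd was at -0.46 after TPM rescaling and -0.29 by voom. Ctsh was at 0.046 after quantile normalization, 0.23 after centring, 0.76 per fragment outside the mitochondrial genome, 0.053 with M1 to M3 only and from -0.33 to 0.021 with 1 kidney left out. Ctsa was at 0.33 per fragment outside the mitochondrial genome. In AA vs. M with M4 and M5 only, Ctsk was at 0.41, Ctsc at 0.13, Ctsb at 0.35 and Ctsl at 0.73. With quality weights Ctsb was at 0.0045 and Ctsl at 0.10. With M1 to M3 only, Ctsh was at -0.044 and Ctsa at 0.28. Ctsh was also at -0.0081 with mitochondrial genes left out, -0.048 after quantile normalization and -0.38 after centring. With 1 kidney left out, Ctsk ran from -0.56 to 0.12, Ctsl from -0.65 to 0.088, Ctsh from -0.012 to 0.34 and Ctsa from -0.31 to 0.042. In AA vs. C after TPM rescaling, Ctsz was at -0.70, Ctsb at -0.12, Ctsd at -0.77, Ctsl at -0.030 and Ctsh at -0.96. By voom, Ctsz was at -0.58, Ctsd at -0.64 and Ctsh at -0.95. Ctsh was at -0.078 with mitochondrial genes left out, -0.14 after centring and from -0.082 to 0.14 with 1 kidney left out, and Ctsa was at 0.18 per fragment outside the mitochondrial genome. Of 684 member values under alternatives, 600 kept their direction and their call.

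Equal mouse numbers in the groups did not pair the kidneys: correlations of same-numbered deviations ran from -0.13 to 0.22, with 2 of 5 above 0.1 in M and C, 0 in AA and M and 1 in AA and C. With the mouse number as a replicate block, 1, 0 and 3 members were called for M against C, AA against M and AA against C, the same counts as without it. Depth limits mainly Ctss and Ctsc in C, with 26 to 656 and 97 to 455 fragments.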

Other observations

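Beyond the 9 members, 14 further cathepsin genes were in the table. Of these, 8 were at 0 in all 15 libraries, among them Ctsg, the granule protease of neutrophils, and the placental members Ctsm and Ctsr. Ctsf and Ctso, cysteine cathepsins of many tissues, were at 3.18 to 7.62 and 1.36 to 3.03 FPKM in C, 1.16 to 14.2 and 1.94 to 6.57 in M, and 6.92 to 12.0 and 2.81 to 5.06 in AA. Ctsw, known from natural killer and cytotoxic T cells, was at 0 in M1 to M3 but at 7.44 FPKM in M4 and 22.6 in M5, above the 0.809 to 1.504 of the controls. The genes tested numbered 4 in M vs. C, 3 in AA vs. M and 5 in AA vs. C, and limma called 0 of them in each, with 1, 1 and 2 at an unadjusted p below 0.05. All were named after their values were seen.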
